A study of Arabidopsis thaliana with 12 samples.

Results

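The genes described here are 47 UDP-glycosyltransferase genes of Arabidopsis thaliana, taken from an array of 22810 probe sets. A gene was included if the array annotation gave its probe set 1 gene only and that gene's symbol began with UGT and a digit. Each of the 47 genes was represented by a single probe set, among 13513 probe sets that name 1 gene. A further 3 probe sets that list a UGT gene together with another gene were left out. All 47 symbols were found unchanged in the gene table of assembly TAIR10.1. That table holds 58 protein-coding genes with such a symbol, so the 47 are only a part of the family.

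RNA came from whole roots at growth stage 3.90 of 4 genotypes, with 3 arrays for each. The wild type, ws2, is the accession Wassilewskija. The akt1 line carries the allele akt1-1, a mutation of an inward potassium channel, in Wassilewskija. The cngc1 and cngc4 lines are mutants of cyclic nucleotide-gated channels, and the labels give neither an allele nor a background accession for them. A difference of a cngc line from ws2 therefore cannot be told apart from a difference between accessions. Every sample pooled 20 to 40 plants, and nothing in the labels says that the replicates were grown separately, so p-values measure only the spread between these samples. In whole roots, fewer cells of a type and less RNA per cell cannot be told apart.

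UDP-glycosyltransferases move a sugar, most often glucose, from a UDP-sugar onto a small molecule. The acceptors of plant UGT enzymes include hormones such as abscisic acid, auxin, cytokinins and salicylic acid, as well as monolignols, flavonoids, hydroxycinnamates and glucosinolate precursors. The sugar usually makes the acceptor more soluble, alters its activity and allows its storage, much of it in the vacuole. The plant family is divided into lettered phylogenetic groups, and UGT80B1, a sterol glucosyltransferase, stands outside them. Of the 47 genes, 14 belonged to group E (families 71, 72 and 88), 8 to group H (76), 8 to group L (74 and 84), 7 to group D (73), 5 to group G (85), 3 to group F (78) and 1 to group J (87).

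The 12 arrays had been scaled alike before deposit, and the median signal of an array lay between 43.3 and 48.5. Replicate 3 of cngc1 was the noisiest array, with a background of 143, a noise of 12.9 and 1251 outlier cells, where the other 11 arrays had 299 to 620 such cells. As markers of root tissues 5 genes were read, among them the root beta-glucosidase PYK10, the root hair expansins EXPA7 and EXPA18 and the phloem sugar transporter SWEET11. All 5 lay above the 40th percentile of every array, and their summed signal was 3148 to 3807 in ws2 and 2851 to 3360 in cngc4. Most of this sum was PYK10, with a mean signal of 2703, where the others had means of 101 to 200. Of 12 nuclear photosynthesis markers of the shoot, none was at 0 on all arrays and 11 could be tested. A signal above the 40th percentile therefore does not by itself show root character. LHCB4.2 never rose above that percentile. The summed signal of the 12 shoot markers was 608.5 to 992 in ws2, 634 to 692 in akt1, 571 to 894 in cngc1 and 1092 to 1588 in cngc4. Of the 11, 3 rose in cngc4 against ws2, where 4.69% of all probe sets tested were called higher. The part of this shift in the UGT results of cngc4 was not tested. The 3-prime to 5-prime signal ratios of controls are given in the order ws2, akt1, cngc1 and cngc4. For the GAPDH control they were 1.18 to 1.37, 1.33 to 1.70, 1.13 to 1.28 and 1.03 to 1.82. For actin they were larger, 4.92 to 7.35, 5.40 to 6.32, 4.66 to 5.27 and 4.70 to 5.96. For ubiquitin they were 2.35 to 2.64, 2.11 to 2.60, 2.16 to 2.64 and 1.93 to 2.51. The ws2 and cngc4 ranges overlapped for each control.

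About as many of the UGT genes passed the filter for testing as did not. A probe set was tested if it exceeded the 40th percentile of its array, a signal of 29.0 to 33.7, on at least 3 arrays. This held for 24 of the 47 genes: 18 exceeded it on all 12 arrays, 3 on 8 to 11 arrays and 3 on 3 to 7 arrays. Of the other 23 genes, 5 exceeded it on 1 or 2 arrays and 18 on none. Among all 22746 probe sets other than controls, 14745 passed the filter. Signals of different probe sets are not on a common scale, so they are compared here between genotypes and not between genes.

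**Figure D1:**
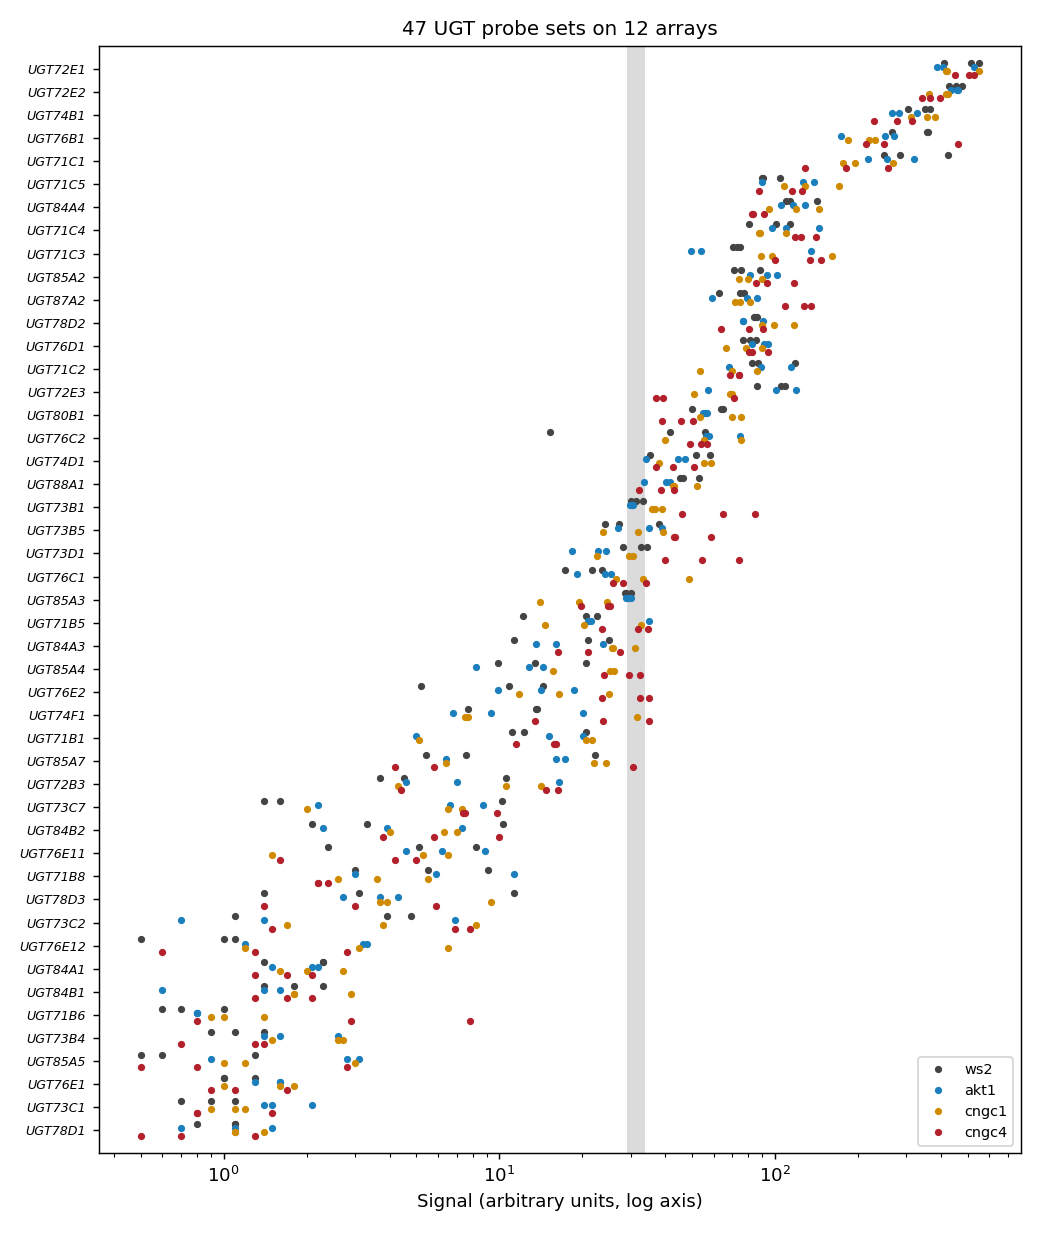
Signal of the 47 UGT probe sets (rows, ordered by mean) on 12 arrays, on a log axis in arbitrary units; each point is 1 array, coloured by genotype. The grey band is the range over arrays of the 40th percentile, 29.0 to 33.7: 18 probe sets lie above their array's percentile on all 12 arrays, and 18 lie above it on none.

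By group, 10 of 14 genes of group E were tested, 4 of 8 of group H, 3 of 8 of group L, 3 of 7 of group D, 1 of 3 of group F, 1 of 5 of group G and the single genes of group J and of the sterol type. The weak genes included several of known function. UGT78D1 and UGT78D3, which add rhamnose and arabinose to flavonols, had mean signals over 12 arrays of 1.03 and 4.48. UGT84B1, which conjugates auxin, and UGT71B6, which conjugates abscisic acid, never exceeded 7.8 on any array. UGT74F1, a salicylic acid glucosyltransferase, had a mean of 15.8 and exceeded the percentile on 1 cngc4 array.

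The remaining weak genes had similarly low values. Mean signals were below 10 for 16 genes, which besides the 4 just given were UGT72B3, UGT73B4, UGT73C1, UGT73C2, UGT73C7, UGT71B8, UGT76E1, UGT76E11, UGT76E12, UGT84A1, UGT84B2 and UGT85A5. They were 14.0 for UGT85A7, 14.6 for UGT71B1, 18.1 for UGT76E2, 19.4 for UGT85A4, 21.5 for UGT84A3 and 25.3 for UGT85A3. A low signal on this array does not show that the transcript was absent.

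In cngc4 roots 2 UGT genes rose and 1 fell against ws2, and 21 of the 24 tested did not pass. UGT87A2, known for its effect on flowering time, and UGT73B1, which acts on flavonoids in vitro, were higher in cngc4. UGT72E3, one of a small group of enzymes that glucosylate monolignols, the building blocks of lignin, was lower. Tests were made with limma on log2(signal + 16), a scale on which the change of weak probe sets is understated, with Benjamini-Hochberg adjustment over all 14745 probe sets tested and a threshold of 0.05. The 3 genes are 12.5% of the 24 tested, and 9.09% of all probe sets passed in the same comparison (4.69% higher, 4.39% lower), so the UGT count lies near the background.

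The 1340 probe sets called in cngc4 against ws2 divided into 692 higher and 648 lower, or into 804 and 481 when each array was centred on its median. That centring left the direction of the 3 UGT calls as it was. The median log2 fold change of the 24 UGT genes was 0.04, against -0.03 for all probe sets, and 13 were positive and 11 negative. The median size of change, taken without sign, was 0.32 for the UGT genes and 0.19 for all probe sets. These medians describe the genes that passed the filter, some of which passed through the genotype in which they were high.

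UGT87A2 (AT2G30140) read 74.9, 77.5 and 62.5 on the ws2 arrays and 135.6, 127.7 and 108.4 on the cngc4 arrays. It read 86.1, 59.3 and 79.5 in akt1 and 74.4, 81.4 and 71.9 in cngc1. All 3 cngc4 arrays lay above the 9 others, and the other 3 genotypes overlapped one another. Means were 71.6 ± 8.02 for ws2 and 124 ± 14.0 for cngc4 (SD, n = 3). On the log2 scale the rise was 0.67, or 1.60-fold, with SE 0.14 and limma adjusted p = 0.00839. The call held in each of 22 alternative settings, in which the log2 fold change ran from 0.47 to 0.78.

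UGT73B1 (AT4G34138) read 33.2, 31.2 and 30.1 in ws2 and 84.4, 64.7 and 46.1 in cngc4. In akt1 it read 30.5, 30.4 and 29.7, and in cngc1 36.7, 38.9 and 35.9. The 3 cngc4 arrays again lay above the 9 others but spread widely among themselves. The ws2 and akt1 values sat at the 40th percentile of their arrays, so the size of the fold is not exact. Means were 31.5 ± 1.57 for ws2 and 65.1 ± 19.2 for cngc4 (SD, n = 3), and the rise was 0.74 on the log2 scale (SE 0.16, limma adjusted p = 0.00980). The call was lost without cngc4 replicate 2 (log2 fold change 0.73, limma adjusted p = 0.0554) and held without each of the other 11 arrays.

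UGT72E3 (AT5G26310) read 108.6, 86.2 and 105.4 in ws2 and 39.2, 37.1 and 70.9 in cngc4. The groups did not overlap, with cngc4 replicate 3 nearest to the wild type. Means were 100.1 ± 12.1 for ws2 and 49.1 ± 18.9 for cngc4 (SD, n = 3), and on the log2 scale the change was -0.87 (SE 0.22, limma adjusted p = 0.0257). The call was lost in some fits with a single array left out. Limma gave adjusted p = 0.0846 without ws2 replicate 1 and adjusted p = 0.0665 without ws2 replicate 3. It gave adjusted p = 0.0790 without cngc4 replicate 1 and adjusted p = 0.142 without cngc4 replicate 2. The log2 fold changes in these fits were -0.81, -0.83, -0.77 and -0.74 in the same order. Of all probe sets, 670, 886, 982 and 321 passed there, against 1340 in the main fit. The UGT72E3 call was also lost with no filter (limma adjusted p = 0.0672), and the change stayed negative in all 22 alternative settings.

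The titles of ws2 replicates 2 and 3 and that of cngc4 replicate 1 carry the word repeat, without saying what was repeated. Among the unmarked arrays (1 of ws2, 2 of cngc4) the log2 fold changes were 0.56 for UGT87A2, 0.52 for UGT73B1 and -0.88 for UGT72E3. Among the marked arrays (2 of ws2, 1 of cngc4) they were 0.82, 1.11 and -1.01 in the same order. None of the 3 genes passed in either, where a lone array was assumed to vary like the others. Since the ws2 and cngc4 arrays of these genes do not overlap, their direction in any such subset is given by that alone.

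**Figure D2:**
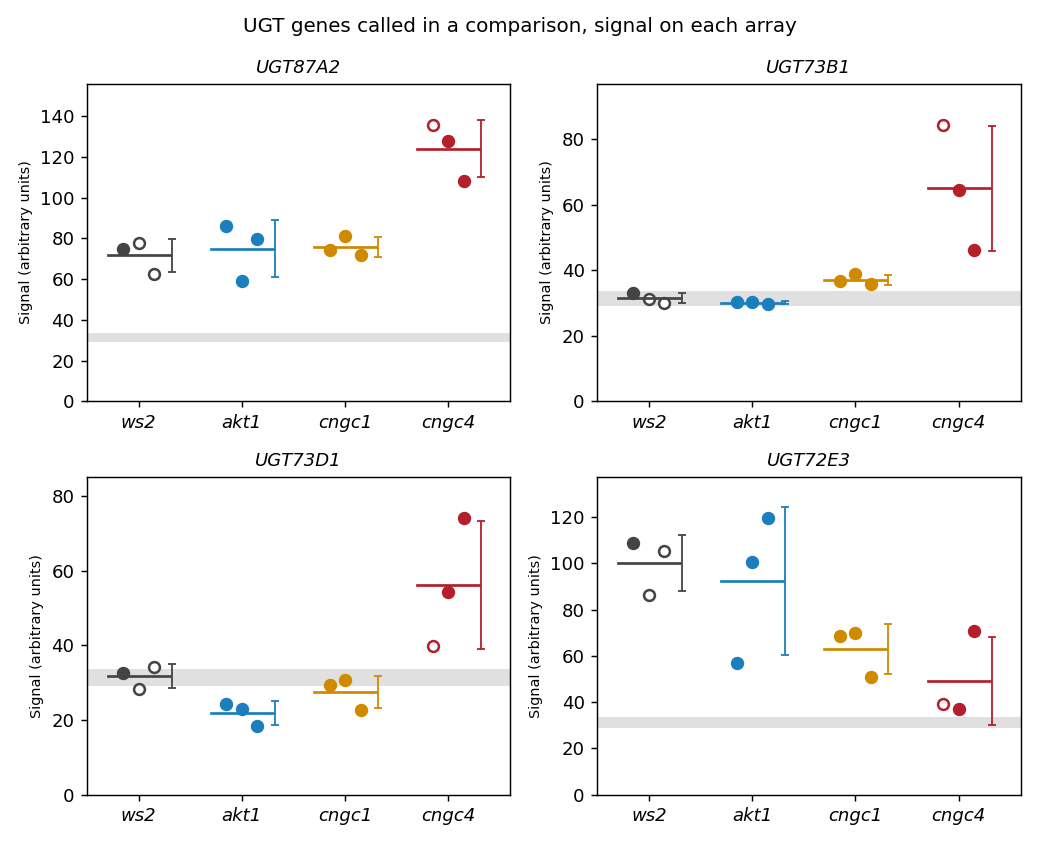
Signal in arbitrary units of the 4 UGT genes called in at least 1 comparison, by genotype; points are single arrays (open where the title is marked repeat), horizontal lines are means, whiskers are ± SD (n = 3), and the grey band is the 40th percentile of the arrays. UGT87A2, UGT73B1 and UGT73D1 are highest on the 3 cngc4 arrays, while UGT72E3 is lowest on cngc4 replicates 1 and 2 (39.2 and 37.1).

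UGT73D1 (AT3G53150), a group D gene whose acceptor is not given here, was called in cngc4 against both other mutants and not against ws2. It read 32.7, 28.2 and 34.3 in ws2, 24.4, 22.9 and 18.4 in akt1, 29.5, 30.6 and 22.6 in cngc1 and 39.9, 54.3 and 74 in cngc4. The cngc4 arrays lay above the 9 others, and every akt1 array lay below every ws2 array. It exceeded the 40th percentile on 3 cngc4 and 2 ws2 arrays and on none of akt1 or cngc1. Without its cngc4 arrays the gene would not have been tested, and the sizes of its folds against akt1 and cngc1 are not exact. The log2 fold change of cngc4 was 0.57 against ws2 (limma adjusted p = 0.0514), 0.90 against akt1 (limma adjusted p = 0.00681) and 0.70 against cngc1 (limma adjusted p = 0.0288). Against ws2 it passed in 6 of 21 alternative settings, among them both other scalings (limma adjusted p = 0.0406 with quantile normalization and 0.0445 with median centring).

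The third tested gene of group D, UGT73B5, was also higher on the cngc4 arrays but did not pass. This gene, known from responses to pathogens, read 27.2, 24.2 and 38.0 in ws2 and 43.3, 58.5 and 43.2 in cngc4, with a log2 fold change of 0.49 and limma adjusted p = 0.0885. Over the tested UGT genes, 4 had all 3 cngc4 arrays above the 9 others (UGT73B1, UGT73B5, UGT73D1 and UGT87A2; 6.1% of all probe sets) and 1 had them below (UGT84A4; 5.12%). Together they are 20.8% of the 24, and 11.2% of all probe sets tested lay beyond the other 9 arrays in cngc4, but UGT73D1 was among the 24 only through its cngc4 arrays. For ws2, akt1 and cngc1 the count of such UGT genes was 0, where the share of all probe sets was 1.21%, 1.3% and 1.67%. The other 4 group D genes among the 47, UGT73B4, UGT73C1, UGT73C2 and UGT73C7, were too weak to test. UGT73C7 is the direct neighbour of UGT73D1 in the genome.

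The 3 enzymes of the UGT72E group, which glucosylate monolignols and their aldehydes, include UGT72E3, the 1 that passed in cngc4 against ws2. UGT72E2 (AT5G66690) read 452.4, 428.0 and 479.0 in ws2 and 396.4, 366.6 and 340.4 in cngc4. Its groups did not overlap, but with a log2 fold change of -0.29 it did not pass (limma adjusted p = 0.144). UGT72E1 (AT3G50740) read 547.8, 411.3 and 515.5 in ws2 and 527.5, 506.5 and 448.7 in cngc4, a log2 fold change of 0.01 with a 95% interval of -0.32 to 0.35. Differences between these genes in their change were not tested. In akt1 UGT72E1 read 525.8, 387.7 and 406.8 and UGT72E2 436.2, 456.8 and 459.6, and in cngc1 they read 416.3, 548.0 and 421.6 and 416.8, 423.3 and 363.3.

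UGT74B1 (AT1G24100), which adds glucose to the thiohydroximate precursor of glucosinolates, did not pass in any comparison. It read 364.4, 350.4 and 302.6 in ws2, 281.4, 265.6 and 328.2 in akt1, 312.6, 356.8 and 379.7 in cngc1 and 277.3, 229.2 and 313.2 in cngc4. The groups overlapped in each comparison with ws2. The log2 fold change against ws2 was -0.30 in cngc4 (limma adjusted p = 0.212), -0.21 in akt1 and 0.04 in cngc1. Between cngc4 and cngc1 it was -0.34, with a 95% interval of -0.65 to -0.04 (limma adjusted p = 0.166). Another member of group L, UGT84A4, is an enzyme of hydroxycinnamate glucose ester synthesis. It read 109.6, 113.8 and 142.1 in ws2 and 91.4, 83.1 and 82.3 in cngc4, with a log2 fold change of -0.43 that did not pass (limma adjusted p = 0.0763). UGT74D1, a glucosyltransferase of auxin metabolites, had a log2 fold change of -0.11 in cngc4.

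The 5 UGT71C genes lie in 2 places in the genome, and none of them passed in cngc4 against ws2. The adjacent genes UGT71C1 and UGT71C2 had log2 fold changes of -0.72 and -0.33. The adjacent trio UGT71C3, UGT71C4 and UGT71C5, the last of which conjugates abscisic acid, had log2 fold changes of 0.67, 0.34 and 0.17. UGT71C1 (AT2G29750) read 283.3, 249.5 and 424.1 in ws2, 218.1, 255.8 and 319.6 in akt1, 176.6, 195.9 and 268.0 in cngc1 and 181.1, 128.3 and 257.0 in cngc4. In ws2, akt1, cngc1 and cngc4 alike, replicate 3 was the highest of its genotype, and ws2 and cngc4 overlapped. UGT71C3 read 73.1, 70.5 and 74.4 in ws2 and 99.7, 134.1 and 146.7 in cngc4 without overlap (limma adjusted p = 0.131), and it passed when only the ws2 and cngc4 arrays were fitted.

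Some of the spread in this cluster lay within genotypes. UGT71C3 read 135.1 on akt1 replicate 1 against 49.8 and 53.8 on the other akt1 arrays, and 161.0 on cngc1 replicate 1 against 88.9 and 97.3 on the other cngc1 arrays. UGT71C5 was also highest on these arrays, with 139.1 on akt1 replicate 1 against 90.0 and 125.9, and 170.1 on cngc1 replicate 1 against 128.0 and 108.2. UGT71C4, which lies between the other two, was not: it read 109.7, 97.5 and 144.9 in akt1 and 87.5, 110.1 and 88.4 in cngc1, highest on replicate 3 and on replicate 2. Whether the probe sets of these related genes also detect each other's transcripts was not tested.

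**Figure D3:**
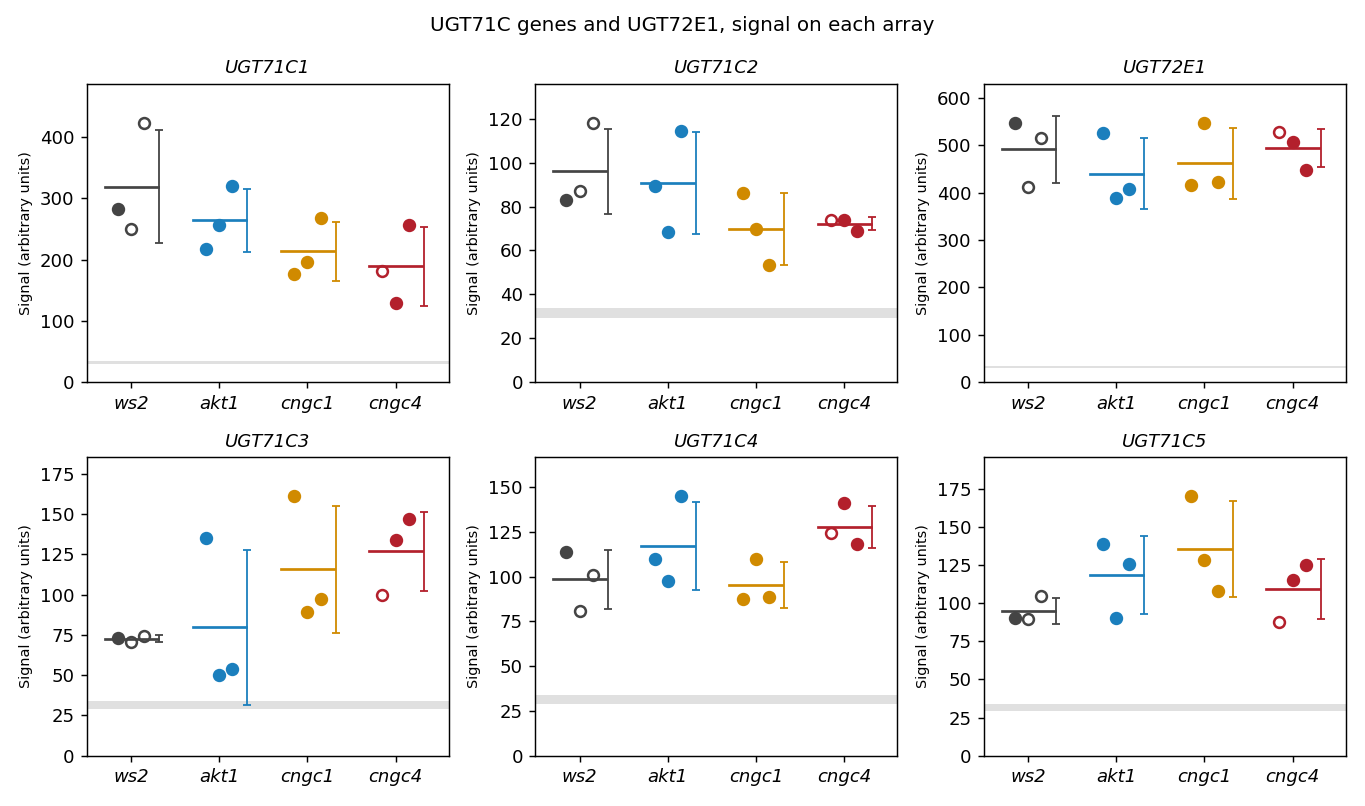
Signal in arbitrary units of UGT71C1 to UGT71C5 and of UGT72E1 by genotype; points are single arrays (open where the title is marked repeat), lines are means, whiskers are ± SD (n = 3), and the grey band is the 40th percentile of the arrays. UGT71C3 has 1 high akt1 array (135.1) and 1 high cngc1 array (161.0), and none of the 6 genes passed in any comparison as fitted here.

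The 4 tested genes of group H, whose members include enzymes acting on cytokinins and on defence-related acids, did not pass in any comparison. UGT76B1 (AT3G11340), a glucosyltransferase of isoleucic acid and salicylic acid, read 359.0, 266.4 and 355.6 in ws2 and 214.0, 249.2 and 461.5 in cngc4, where 1 array was above and 2 were below all ws2 arrays. It read 230.5, 184.0 and 219.0 in cngc1, all below ws2, and 173.1, 249.7 and 270.6 in akt1. The cytokinin N-glucosyltransferase UGT76C2 read 55.8, 41.7 and 15.3 in ws2, and its log2 fold changes of 0.63 in akt1, 0.50 in cngc1 and 0.45 in cngc4 are all measured against a wild type with 1 low array, replicate 3. UGT76C1, its neighbour and also a cytokinin enzyme, read 21.7, 23.6 and 17.3 in ws2 and 48.7, 33.3 and 26.6 in cngc1, and no ws2 or akt1 array exceeded the 40th percentile. UGT76D1 had log2 fold changes between -0.04 and 0.12 against ws2.

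Of the other tested genes, UGT71B5 read 22.6, 12.2 and 20.6 in ws2 and 31.8, 34.5 and 23.5 in cngc4. No ws2 array exceeded the 40th percentile, so its log2 fold change of 0.42 is not exact. In cngc4 against ws2 the log2 fold change was 0.28 for UGT85A2, -0.25 for UGT88A1, -0.31 for the sterol glucosyltransferase UGT80B1 and -0.11 for UGT78D2, which glucosylates flavonols and anthocyanins. None of these 5 genes passed. Over the 24 genes, the cngc4 and ws2 arrays did not overlap for 13, with 8 higher and 5 lower in cngc4. This is 54.2% of the genes tested, where 30.9% of all probe sets did not overlap (15% higher, 15.9% lower). The 13 include UGT73D1, UGT71B5 and UGT76C1, 3 genes that would not have reached the filter without their cngc4 arrays. The share of genes was not tested against that of all probe sets, and no difference of cngc4 is read from it.

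**Figure D4:**
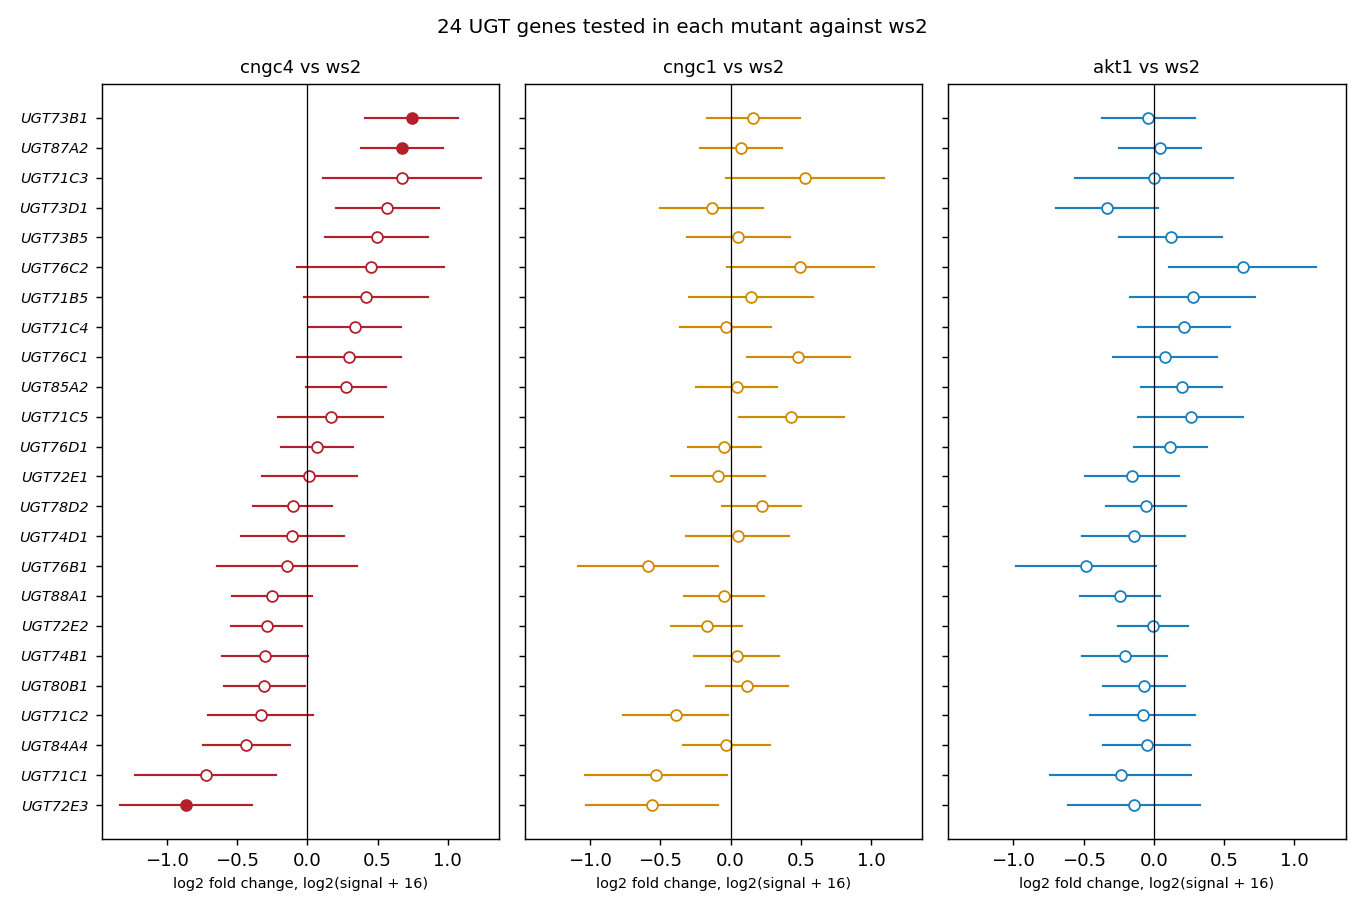
Log2 fold change on the log2(signal + 16) scale of the 24 tested UGT genes in each mutant against ws2, with 95% confidence intervals from limma; filled points passed at an adjusted p under 0.05. Only UGT87A2, UGT73B1 and UGT72E3 are filled, all in cngc4, and all 3 mutants are set against the same 3 ws2 arrays.

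In cngc1 no UGT gene passed against ws2 in limma, and 0.00678% of all probe sets did. By limma an unadjusted p under 0.05 was reached by 6 of the 24 genes (25%) and by 7.32% of all probe sets, and log2 fold changes ran from -0.59 to 0.53. The 3 genes of smallest p were UGT76C1 (0.48, limma adjusted p = 0.607), UGT72E3 (-0.56, limma adjusted p = 0.633) and UGT76B1 (-0.59, limma adjusted p = 0.635). UGT72E3 read 68.6, 69.7 and 50.7 in cngc1, below every ws2 array. Its 95% interval in cngc1 ran from -1.03 to -0.09, and cngc4 did not differ from cngc1 past the threshold (log2 fold change -0.31, limma adjusted p = 0.435). UGT71C3 was higher on each cngc1 array than on any ws2 array, with a log2 fold change of 0.53 (limma adjusted p = 0.686). The arrays did not overlap for 8 of the 24 genes, or 33.3%, against 12.8% of all probe sets. UGT76C1, counted in this share and in the 25%, would not have reached the filter without its cngc1 arrays. The shares were not tested against those of all probe sets, and no difference of cngc1 is read from them.

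In akt1 no UGT gene passed against ws2, and 0% of all probe sets did. By limma, 1 of the 24 genes (4.17%) and 5.06% of all probe sets had an unadjusted p under 0.05. The gene was UGT76C2 (0.63, limma adjusted p = 0.957), which read 56.3, 57.6 and 74.8 in akt1. The next were UGT76B1 (-0.48) and UGT73D1 (-0.33), with the same adjusted p. The 95% interval was -0.25 to 0.34 for UGT87A2 and -0.37 to 0.29 for UGT73B1, which leaves out changes as large as those measured in cngc4. For UGT72E3 it was -0.61 to 0.33, with akt1 values of 57.0, 100.7 and 119.4. The arrays of akt1 and ws2 did not overlap for 3 of the 24 genes, or 12.5%, against 9.66% of all probe sets.

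The direct comparisons of cngc4 with the other mutants use the cngc4 arrays again, so they are not independent of the comparison with ws2. Against akt1, UGT73D1, UGT73B1 and UGT87A2 were higher in cngc4 and no UGT gene was lower. They are 12.5% of the 24 tested, where 8.88% of all probe sets passed (4.54% higher, 4.34% lower), and UGT73D1 passed the filter through its cngc4 arrays, in this comparison and in that with cngc1. UGT73B1 had a log2 fold change of 0.78 (limma adjusted p = 0.00822) and UGT87A2 of 0.63 (limma adjusted p = 0.0129). The UGT87A2 call was lost without akt1 replicate 2 (limma adjusted p = 0.0702) and without cngc4 replicate 2 (limma adjusted p = 0.0637). UGT73D1 and UGT73B1 held without each single array. UGT72E3 had a log2 fold change of -0.73 that did not pass (limma adjusted p = 0.0528), and it passed without akt1 replicate 1 (limma adjusted p = 0.00746), the lowest akt1 array, as did UGT71C3, which made the count 5.

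Against cngc1, the same 3 genes, UGT87A2 (0.60, limma adjusted p = 0.0216), UGT73D1 (0.70) and UGT73B1 (0.58, limma adjusted p = 0.0438), were higher in cngc4 and none was lower, where 5.17% of all probe sets passed (3.23% higher, 1.94% lower). All probe sets called divided into 476 higher and 286 lower, or 572 and 205 with median centring. None of these UGT calls was left without cngc1 replicate 3, the array of highest noise, and none without cngc4 replicate 2. In those fits 248 and 123 of all probe sets passed, against 762 in the main fit. UGT73B1 passed in 8 of 21 alternative settings, UGT73D1 in 16 of 21 and UGT87A2 in 19 of 22. Without cngc1 replicate 3 the log2 fold changes were 0.57 for UGT87A2, 0.62 for UGT73D1 and 0.56 for UGT73B1. Between cngc1 and akt1 no UGT gene passed (0.00678% of all probe sets), and 1 had an unadjusted limma p under 0.05 (11.2% of all probe sets), UGT76C1, with a log2 fold change of 0.41 (limma adjusted p = 0.420). The next by p were UGT78D2 (0.28, limma adjusted p = 0.456), which read 90.2, 76.7 and 76.6 in akt1 and 89.5, 99.4 and 117 in cngc1, and UGT71C3 (0.53, limma adjusted p = 0.464). The arrays of akt1 and cngc1 overlapped for both. Over the 24 genes, the arrays did not overlap for 8 in cngc4 against akt1 (33.3%, and 28.7% of all probe sets), for 7 in cngc4 against cngc1 (29.2%, and 27.4%) and for 4 in cngc1 against akt1 (16.7%, and 14.9%). UGT73D1 would not have reached the filter without its cngc4 arrays, nor UGT76C1 without its cngc1 or its cngc4 arrays. Each of these counts holds at least 1 of them.

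Genes that act before, beside or after the UGT enzymes were followed in lists of symbols, of which few members are named on the array. Among 11 glutathione transferases tested, which conjugate glutathione in place of a sugar, GSTU28 (-1.12) and GSTU20 (-1.04) fell in cngc4 against ws2, GSTU16 (0.79) rose and 8 did not pass. The 3 are 27.3% of the list, where 9.09% of all probe sets passed. The median log2 fold change of the list was -0.39, against -0.03 for all. GSTU16 had mean signals of 27.1 in ws2, 27.7 in akt1, 28.4 in cngc1 and 58.4 in cngc4. Outside cngc4 these means lay below the 40th percentile of every array (29.0 to 33.7), so its fold is not exact. Whether GSTU16 would have reached the filter without its cngc4 arrays was not tested, and no difference is read from the share. Of 17 serine carboxypeptidase-like proteins, some of which use glucose esters as acyl donors, 4 fell in cngc4 (scpl40, scpl48, scpl28 and SCPL34, from -0.87 to -0.54) and 13 did not pass, which is 23.5% of the list, where 4.39% of all probe sets were lower. None of 8 beta-glucosidases, which remove glucose again, and none of 9 cytochrome P450s passed against ws2, with medians of -0.32 and -0.04. Against cngc1, BGLU42 was lower in cngc4 (-0.92, limma adjusted p = 0.00551) and CYP71B23 higher (0.90, limma adjusted p = 0.00705). CYP71B6 was higher in cngc4 than in akt1 (0.69, limma adjusted p = 0.0290) and than in cngc1 (0.70, limma adjusted p = 0.0393). Against cngc1 these are 12.5% of the beta-glucosidases and 22.2% of the P450s, and against akt1 11.1% of the P450s. GSTU20 and GSTU16 passed against both other mutants in the same directions, and GSTU28 fell against akt1. They are 27.3% of the list against akt1 and 18.2% against cngc1, with GSTU16 counted in both. Also lower in cngc4 were scpl48 against akt1 (5.88%) and scpl31 and scpl40 against cngc1 (11.8%). Of all probe sets, 8.88% passed against akt1 and 5.17% against cngc1.

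Of 5 genes of phenylpropanoid and flavonoid synthesis, CCOAMT, annotated as a caffeoyl-CoA methyltransferase, rose in cngc4 with a log2 fold change of 1.22 (limma adjusted p = 0.0108). The other 4 did not pass, so the share is 20%, where 9.09% of all probe sets passed (4.69% higher). CCOAMT was also higher in cngc4 than in akt1 (limma adjusted p = 0.0128) and than in cngc1 (limma adjusted p = 0.0208). In both comparisons the share was again 20%, where 8.88% and 5.17% of all probe sets passed. Each share rests on 1 gene, and no difference is read from it. The mean signal of CCOAMT was 54.8 in ws2, 56.3 in akt1, 63.3 in cngc1 and 154 in cngc4. The auxin-conjugating GH3.17, the single gene of its list that was tested, fell from a mean signal of 267 in ws2 to 117 in cngc4 (limma adjusted p = 0.00208). GH3.17 was also lower in cngc4 than in akt1 (-1.37). The single tested genes of UDP-sugar supply (-0.35) and glucosinolate synthesis (-0.25) did not pass. In all of these lists no gene passed in cngc1 or akt1 against ws2.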

How the data were processed

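The files deposited by the authors hold linear signal intensity, 1 value for each probe set. The software and build that produced them are not given here, and coordinates are left out. The mean after trimming 2% at each end was 100.01 on all deposited arrays when rounded. Values were used as log2(signal + 16) without further normalization; 64 control probe sets were left out, and 14745 passed the filter. Limma 3.58.1 in R 4.3.3 fitted 4 genotype means to 12 arrays, with a mean-variance trend and 6 contrasts, two-sided. An exact permutation test of 3 against 3 arrays cannot go below p = 0.10 and was not used. The procedure was tested on simulated data. Precision is limited by 3 arrays per genotype; UGT genes had a median standard error of 0.16 on the log2 scale.

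For same-numbered replicates, the deviations of 18 pairs of arrays correlated from -0.17 to 0.27, with 3 pairs above 0.1. Pairs of unlike number were not set beside them, so this cannot decide whether the replicates are paired. The main fit left them unpaired, and a block for replicate numbers was fitted as an alternative. No arrays were identical. The members, the lists of related genes (11, of which 3, for ABC transporters, sulfotransferases and cytokinin genes, had no gene tested) and the marker genes were chosen with earlier results of these data known. The rule for naming gave array values for UGT genes called in any comparison, 4 marker genes (UGT73B1, UGT87A2, UGT72E3, UGT74B1) and the 5 of highest mean signal (UGT72E1, UGT72E2, UGT74B1, UGT76B1, UGT71C1), and, per comparison, the 3 of smallest p and those not overlapping with a log2 fold change of at least 0.5; UGT73B5, UGT84A4, UGT76C1 and the UGT71C genes were described further after their values were seen. The genes mutated in the lines were not analysed here. Alternatives were other scalings, offsets, filters and model settings, a block for replicate numbers, a covariate for the repeat mark, and leaving out each array; fits within unmarked and marked arrays were chosen after seeing the data. Figures were drawn with matplotlib 3.10.9.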

Additional observations from a re-analysis of the deposited data

How the results depend on the processing

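The counts of UGT genes called against ws2 were 0 in akt1 and cngc1, and between cngc1 and akt1, in each of 22 planned settings. In cngc4 against ws2 the count was 3, between 1 and 4 with 1 array left out, with 1 left without cngc4 replicate 2 (UGT87A2), and 0 within the unmarked and 0 within the marked arrays. Against akt1 it was 3, and 2 to 5 with 1 array left out. Against cngc1 it was 3, and 1 with no filter, with a 60th-percentile filter, with only the 2 groups fitted, or within unmarked arrays; it was 0 to 3 with 1 array left out, and 1 without cngc4 replicate 1. With the replicate block the counts were 4, 3 and 3 in the same order, UGT71C1 being the gene added against ws2. The cause of these moves was not tested, apart from fewer genes or arrays where an alternative removes them. With no filter, 1 weak gene was called in cngc4 against ws2, UGT76E2, which read 5.2, 10.8 and 14.4 in ws2 and 23.5, 32.4 and 35.0 in cngc4 (limma adjusted p = 0.0320); UGT85A4 was called against akt1. No called direction reversed. For all probe sets, the count in cngc4 against ws2 was 1340, and 813 with no filter, 714 with the repeat mark as a covariate, 670 without ws2 replicate 1, 589 without ws2 replicate 2, 886 without ws2 replicate 3, 321 without cngc4 replicate 2, 17 within unmarked and 5 within marked arrays. Against akt1 it was 1310, and 797 with no filter, 607 within unmarked arrays, 840 and 302 without cngc4 replicates 1 and 2, and 350 and 720 without akt1 replicates 2 and 3. Against cngc1 it was 762, and 402 with no filter, 408 with 2 groups fitted, 412 within unmarked arrays, 123 without cngc4 replicate 2 and 248 without cngc1 replicate 3. Low signal limits the 23 weak genes, whose folds cannot be read.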
